A study of Mus musculus with 7 samples.

Results

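The mouse genes for the Fc gamma receptors and for the common gamma chain that several of them need were followed through retinal microglia with and without laser injury. They are 5 of the 40743 genes in the expression table and were taken by symbol: the activating receptors Fcgr1, Fcgr3 and Fcgr4, the inhibitory receptor Fcgr2b, and Fcer1g, which encodes the chain. In 7 libraries labelled Irf8 KO, 0 of the 5 passed an adjusted p of 0.05 between lasered and unlasered retinae. Fcgr4 came closest, at 2.06 times the unlasered level, and its lasered level was low in a single library. Fcer1g and Fcgr3 were the most abundant transcripts of the set in both groups.

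Fc gamma receptors bind the constant part of IgG, so that a phagocyte can take up or attack what antibodies have coated. The activating receptors pass the signal on through an ITAM, a tyrosine motif that the common gamma chain carries for them, to the kinase Syk. The inhibitory receptor carries an ITIM, which recruits phosphatases such as SHIP-1, and the balance between both kinds sets the threshold of the response of macrophages and microglia to immune complexes.

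The study asked how the transcription factor Irf8 shapes retinal microglia at rest and after laser-induced choroidal neovascularisation, a model in which laser burns make vessels of the choroid grow into the retina. All 7 libraries came from retinal microglia of mice with the genotype Irf8-/- Cx3cr1GFP/+, bred on C57BL/6J without the Crb1 mutation. The study calls the unlasered mice adult, and an exact age is not given in the sources used here. The Irf8 deletion was not limited to microglia, and the mice had 1 working copy of Cx3cr1 beside GFP. The 3 unlasered libraries came from untreated mice and the 4 lasered libraries from mice 7 days after the laser. Each library pooled cells of 3 to 4 mice, with 10000 cells on average, sorted as CD45low CD11b+ Cx3cr1GFP/+ Ly6C- Ly6G-. For lasered mice only the central 70% of the retina was used, so laser injury and the region of the retina cannot be told apart. The antibody used to block unspecific staining was directed against CD16/CD32, the products of Fcgr3 and Fcgr2b. Libraries of Irf8 wild-type mice were not analysed here.

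Between 20427558 and 36022954 reads were recovered per unlasered library and between 37133297 and 45919042 per lasered library. Irf8 itself, listed only jointly with the overlapping gene Gm20388, was at 530, 489 and 507 CPM (reads of a gene scaled to a fixed library total) in unlasered libraries 1, 2 and 3. In lasered libraries 1 to 4 it was at 463, 465, 475 and 582 CPM, so that the libraries are called by their label and every comparison rests on it. The 8 microglia markers summed to 22557 to 26833 CPM in unlasered and 20740 to 27608 CPM in lasered libraries. The 12 rod photoreceptor markers summed to 2019 to 18591 CPM in unlasered and 299 to 941 CPM in lasered libraries, and 11 of them were lower after laser injury, so rod RNA moved with the groups that every comparison here uses. Its part in the results was not tested. Reads are not independent molecules, and in pooled RNA fewer expressing cells and less RNA per cell cannot be told apart.

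Of the 5 genes, 4 lie within 276 kb of chromosome 1 of GRCm38 (GENCODE M21). Fcgr2b (ENSMUSG00000026656) runs from 170958617 to 170976547 on the minus strand, Fcgr4 (ENSMUSG00000059089) from 171018920 to 171029761 on the plus strand, Fcgr3 (ENSMUSG00000059498) from 171051174 to 171064935 on the minus strand, and Fcer1g (ENSMUSG00000058715) from 171229572 to 171234365 on the minus strand. Fcgr1 (ENSMUSG00000015947) is on chromosome 3, from 96282909 to 96293969 on the minus strand. All 5 are protein-coding. The members were covered by 1617 to 78655 reads per library, and none of their values held reads listed jointly with another gene.

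Fcgr2b and Fcgr3 are neighbours whose extracellular parts are near-copies, which matters for their values because a read from the copied stretch fits both genes. Over their aligned coding sequence they were identical at 650 of 759 bases (85.6%), whereas the other pairs of receptors were identical at 60.9 to 65.6%. The stretch of 150 coding bases below was placed around their longest identical run, of 129 bases, with capitals at the 2 bases that differ. It spans an exon junction in both genes. For Fcgr2b it covers coding bases 268 to 417, at chr1:170967980-170968091 and chr1:170966663-170966700, and for Fcgr3 coding bases 253 to 402, at chr1:171057691-171057802 and chr1:171054156-171054193, all on the minus strand of GRCm38.
Fcgr2b: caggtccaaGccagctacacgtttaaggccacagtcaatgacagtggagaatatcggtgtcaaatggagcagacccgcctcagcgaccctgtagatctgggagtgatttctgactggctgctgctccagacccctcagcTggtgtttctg
Fcgr3: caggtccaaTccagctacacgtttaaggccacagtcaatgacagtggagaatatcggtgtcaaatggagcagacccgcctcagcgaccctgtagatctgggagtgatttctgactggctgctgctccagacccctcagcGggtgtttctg
Of all stretches of 50 bases in the Fcgr3 transcripts, 9.58% (166 stretches) also occurred in Fcgr2b. Of those in the Fcgr2b transcripts, 4.38% (249 stretches) occurred in any other gene, most often Fcgr3, Gm4117 and Gm33843. For Fcgr1, Fcgr4 and Fcer1g this share was 0. How reads that fit both genes were assigned is not given in the sources used here, so a part of the Fcgr2b and Fcgr3 values is uncertain.

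Divided by exonic length, the members fell into a group of abundant and a group of sparse transcripts. In unlasered libraries Fcer1g was the highest with 1953 ± 287 CPM per kb (SD, n = 3), followed by Fcgr3 with 887 ± 167 CPM per kb. Fcgr2b followed with 85.1 ± 8.59 CPM per kb, Fcgr4 with 67.7 ± 4.12 CPM per kb and Fcgr1 with 67.0 ± 10.05 CPM per kb. The ranges of Fcgr4 and Fcgr1 overlapped, and those of all other neighbours in this order were separate. In lasered libraries Fcer1g had 1879 ± 59.3 CPM per kb (SD, n = 4) and Fcgr3 667 ± 53.1 CPM per kb. Fcgr4 then came before Fcgr1 and Fcgr2b, with 148 ± 48.7, 86.8 ± 8.54 and 74.3 ± 6.43 CPM per kb, and neighbours among these 3 genes overlapped. With the length of the longest transcript, Fcgr2b was at 139 and 121 CPM per kb in unlasered and lasered libraries, above Fcgr1 in both.

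**Figure D1:**
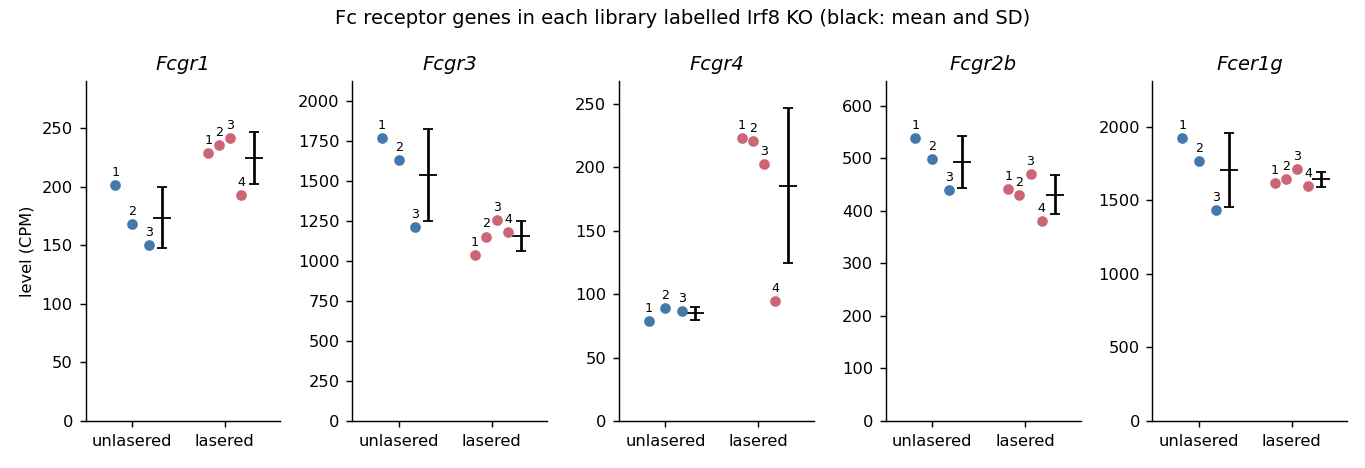
Level of each member in CPM (linear axes that start at 0) in the 3 unlasered (blue) and 4 lasered (red) libraries, numbered by library, with the group mean and SD in black. Fcgr4 is the member whose groups do not overlap, and lasered library 4, at 94.8 CPM, lies next to the unlasered libraries.

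Fcgr4 encodes Fc gamma receptor IV, an activating receptor of intermediate affinity found on monocytes, macrophages and neutrophils of the mouse. Its level was 79.2, 89.0 and 86.8 CPM in unlasered libraries 1, 2 and 3. In lasered libraries 1, 2, 3 and 4 it was 224, 221, 203 and 94.8 CPM. Every lasered library lay above every unlasered library, but library 4 exceeded the highest unlasered library by less than the other lasered libraries did. The mean was 85.0 ± 5.17 CPM (SD, n = 3) in unlasered and 185 ± 61.1 CPM (SD, n = 4) in lasered libraries. The log2 fold change of lasered over unlasered libraries was 1.04 (SE 0.28, 95% interval 0.41 to 1.67), with an adjusted p of 0.0594 from limma with Benjamini-Hochberg adjustment over 17496 genes. This corresponds to 2.06-fold, with an interval of 1.33 to 3.18.

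The call for Fcgr4 depended on lasered library 4 and on the tool. Without that library the lasered mean was 216 ± 11.3 CPM (SD, n = 3), the log2 fold change 1.33 (SE 0.13) and the adjusted p 0.00535 from limma, in a fit where 4.46% of all tested genes passed. With all libraries the adjusted p was 0.0344 from edgeR and 0.000525 from DESeq2 on the recovered reads, and 0.0451 from limma with median-of-ratios scaling, where 7.18% of all tested genes passed. Over 15 alternative settings the adjusted p ranged from 0.000525 to 0.153, and 4 of them passed 0.05.

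Markers of monocytes, which also express Fcgr4 and whose Ly6C-positive kind the sort gated out, were set beside it. The 6 monocyte markers summed to 65.8, 23.1 and 72.5 CPM in the unlasered libraries and to 160, 208, 35.9 and 13.4 CPM in lasered libraries 1, 2, 3 and 4. The defining marker Ccr2 was at 5.63 to 14.2 CPM in unlasered libraries and at 81.5, 128, 19.7 and 7.57 CPM in lasered libraries 1, 2, 3 and 4. In lasered library 3 the monocyte sum lay within the unlasered range while Fcgr4 was at 203 CPM. In lasered library 4 both were the lowest of the group. The 6 dendritic cell markers likewise summed to 126, 132, 34.1 and 31.0 CPM in lasered libraries 1, 2, 3 and 4, against 18.3 to 40.8 CPM in unlasered libraries. The largest part in lasered libraries 1 and 2 was Ccr7, at 74.8 and 68.5 CPM. Log2 fold changes were 3.35 for Ccr7, 2.09 for Cd209a, 1.56 for Flt3, 0.11 for Zbtb46 and -0.44 for Xcr1. None of these passed with limma, and Clec9a was not tested. Of the 7 neutrophil markers 2 of 4 tested were higher with limma, Cxcr2 and Mmp8, where 3.86% of all tested genes were higher. They are named after their values were seen. The other tested markers, S100a8 and Csf3r, did not pass (log2 fold change -0.07 and 0.16, adjusted p = 0.968 and 0.640 from limma). S100a9 was not tested, at 0 to 3.48 CPM in unlasered and 0 to 1.18 CPM in lasered libraries. Cxcr2 was at 0.0292 to 0.147 CPM in unlasered libraries and at 5.48, 5.03, 12.9 and 1.05 CPM in lasered libraries 1, 2, 3 and 4 (adjusted p = 0.0305 from limma). Mmp8 was at 0 to 0.0555 CPM and at 2.63, 5.72, 1.72 and 0.889 CPM (adjusted p = 0.0337 from limma). Both were lowest in lasered library 4 among the lasered libraries, as Fcgr4 was, while the defining markers Ly6g and Retnlg were at or under the floor of 3 reads in every library. The part of these cells in the Fcgr4 level was not tested. None of the 5 monocyte markers tested passed an adjusted p of 0.05 with limma (0) or edgeR (0), 1 passed with DESeq2, and 1 had an unadjusted p under 0.05.

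Fcgr1 encodes CD64, the high-affinity IgG receptor and a common marker of macrophages. It was at 202, 168 and 150 CPM in unlasered libraries 1, 2 and 3 and at 229, 236, 242 and 193 CPM in lasered libraries 1, 2, 3 and 4. Lasered library 4 lay below unlasered library 1, and the other 3 lasered libraries lay above all unlasered ones. The means were 173 ± 26.0 CPM (SD, n = 3) and 225 ± 22.1 CPM (SD, n = 4). The log2 fold change was 0.38 (SE 0.14, 95% interval 0.06 to 0.69), and the gene did not pass the test (adjusted p = 0.148 from limma, 0.103 to 0.298 over the alternatives).

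Fcgr3 encodes CD16, the low-affinity activating receptor. It was at 1773, 1632 and 1215 CPM in unlasered libraries 1, 2 and 3 and at 1037, 1154, 1258 and 1185 CPM in lasered libraries 1, 2, 3 and 4. Unlasered library 3 lay among the lasered libraries, and the other 2 unlasered libraries lay above all of them. The means were 1540 ± 290 CPM (SD, n = 3) and 1159 ± 92.2 CPM (SD, n = 4), a log2 fold change of -0.40 (SE 0.15, 95% interval -0.72 to -0.07). The adjusted p was 0.141 from limma, and 0.0280 without unlasered library 3, where the log2 fold change was -0.56 and 8.04% of all tested genes passed.

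Fcgr2b encodes CD32B, the inhibitory receptor. It was at 539, 499 and 440 CPM in unlasered libraries 1, 2 and 3 and at 441, 430, 470 and 381 CPM in lasered libraries 1, 2, 3 and 4. The groups overlapped, with 2 unlasered libraries above all lasered ones. The means were 493 ± 49.7 CPM (SD, n = 3) and 430 ± 37.2 CPM (SD, n = 4), and the log2 fold change was -0.19 (SE 0.12, 95% interval -0.47 to 0.08, adjusted p = 0.389 from limma). The antisense gene Gm38204, looked at because it overlaps 155 bp of the exons of Fcgr2b, had 54 to 181 reads per library, and the library kit does not mark the strand. It was at 4.72 to 5.29 CPM in unlasered and 1.28 to 2.63 CPM in lasered libraries (log2 fold change -1.02, SE 0.23, adjusted p = 0.0346 from limma), a lower level that passed in 4 of 15 alternative settings.

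Fcer1g encodes the common gamma chain, which also serves receptors outside the Fc gamma family. It was at 1925, 1763 and 1433 CPM in unlasered libraries 1, 2 and 3 and at 1614, 1646, 1713 and 1595 CPM in lasered libraries 1, 2, 3 and 4. All lasered libraries lay within the range of the unlasered ones. The log2 fold change was -0.05 (SE 0.12, 95% interval -0.32 to 0.22, adjusted p = 0.860 from limma), an interval that leaves room for either direction, and without unlasered library 1 it was 0.046. Unlasered library 3 was the lowest of its group for 4 of the 5 members, and lasered library 4 was the lowest of its group for 4 of the 5.

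With limma 0 of 5 members passed an adjusted p of 0.05, where 6.93% of all tested genes passed. At an unadjusted p under 0.05 there were 3 of 5 members (Fcgr1, Fcgr3 and Fcgr4) against 22.7% of genes. With edgeR 1 of 5 passed (Fcgr4) against 7.24% of genes, and with DESeq2 1 of 5 (Fcgr4) against 13.3%. The groups did not overlap for 1 of 5 members, and they did not overlap for 21.0% of all tested genes. Lasered libraries lay above all unlasered ones, as for Fcgr4, for 10.4% of all tested genes. The median log2 fold change of the 5 members was -0.05, beside -0.01 over all genes tested.

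**Figure D2:**
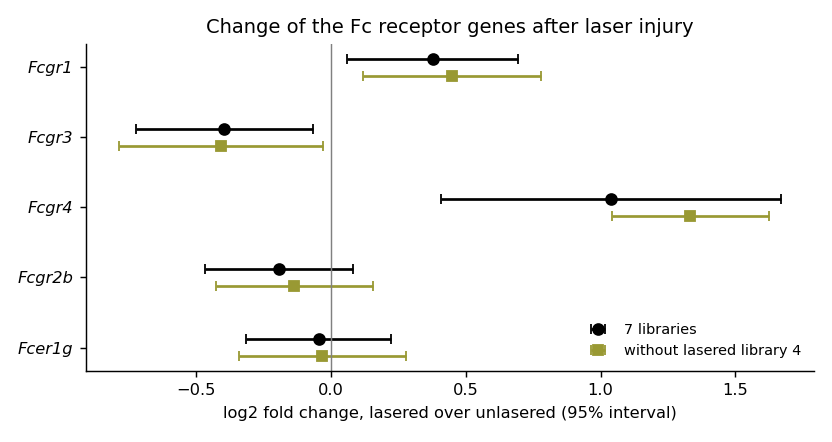
Log2 fold change of lasered over unlasered libraries for each member, as points with 95% intervals from limma, over all 7 libraries (black) and without lasered library 4 (olive). Fcgr4 lies at 1.04 and 1.33, Fcgr1 is above 0 and Fcgr3 below 0 in both fits, and the intervals of Fcgr2b and Fcer1g include 0.

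The make-up of the activating receptors, as shares of their summed CPM per kb, is given as a description without a test. Fcgr3 made up 87.9, 87.4 and 84.6% in unlasered libraries 1, 2 and 3 and 69.2, 71.4, 74.0 and 82.0% in lasered libraries 1, 2, 3 and 4. Every lasered share of Fcgr3 was below every unlasered share. Fcgr4 made up 5.42, 6.58 and 8.35% in the unlasered and 20.6, 18.9, 16.5 and 9.06% in the lasered libraries in the same order, and Fcgr1 made up 6.70, 6.04 and 7.02% and 10.2, 9.76, 9.54 and 8.93%. The shares of both genes were higher in every lasered library. Shares add up to the whole, so a lower share of Fcgr3 follows from higher shares of the others. In CPM the groups overlapped for Fcgr3 and for Fcgr1. The sum of the 3 activating receptors was 1022 ± 174 CPM per kb (SD, n = 3) in unlasered and 902 ± 66.3 CPM per kb (SD, n = 4) in lasered libraries, with overlapping ranges of 827 to 1162 and 833 to 980 CPM per kb.

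**Figure D3:**
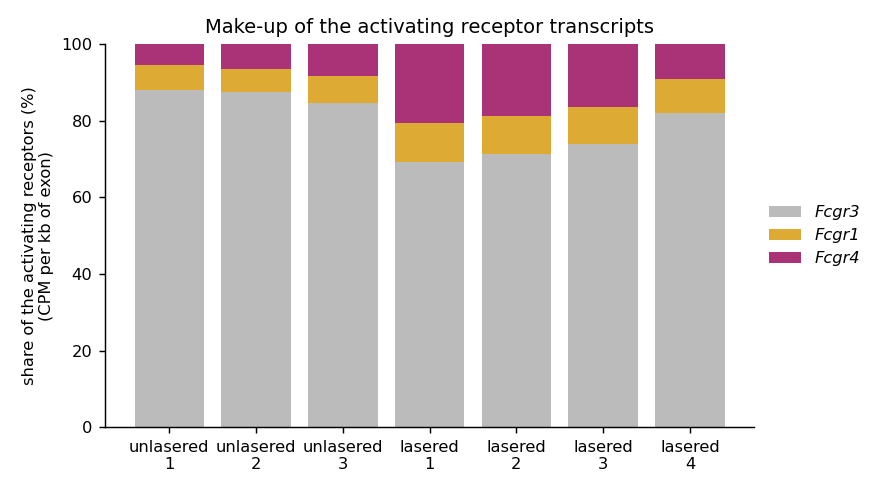
Shares of Fcgr3 (grey), Fcgr1 (yellow) and Fcgr4 (purple) in the summed CPM per kb of exon of the activating receptors, in percent, for each of the 7 libraries. The Fcgr4 share is between 16.5 and 20.6% in lasered libraries 1 to 3 and 9.06% in lasered library 4, against 5.42 to 8.35% in unlasered libraries.

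The sum of activating receptors over the inhibitory Fcgr2b, per kb, was 12.5, 12.5 and 10.9 in unlasered libraries 1, 2 and 3 and 11.3, 12.6, 12.1 and 12.7 in lasered libraries 1, 2, 3 and 4. The means of 11.96 ± 0.927 (SD, n = 3) and 12.2 ± 0.599 (SD, n = 4) differed by less than either SD. The level of Fcer1g over the sum of the activating receptors was 1.89, 1.87 and 1.98 in unlasered and 2.14, 2.02, 2.001 and 2.19 in lasered libraries. All lasered values were above the unlasered ones, though by little for lasered library 3. Both ratios depend on the transcript lengths used, and the Fcgr2b and Fcgr3 values share the uncertain reads named above.

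The promoters of the activating receptors are shown because these 3 genes had an unadjusted p under 0.05, in both directions. Each window covers 250 bases before to 50 bases after the transcript start in RefSeq (GRCm38.p6), 5' to 3' on the strand of the gene, and all 5 members matched. Capitals mark motifs found by their letters on either strand: GAGGAA, a core bound by PU.1, the myeloid factor that can pair with Irf8, which all 3 windows hold as its reverse complement, and GAAANNGAAA, the paired half-sites of interferon regulatory factors. Positions are those of the first letter, counted from the start.
Fcgr4, chr1:171018676-171018975, plus strand: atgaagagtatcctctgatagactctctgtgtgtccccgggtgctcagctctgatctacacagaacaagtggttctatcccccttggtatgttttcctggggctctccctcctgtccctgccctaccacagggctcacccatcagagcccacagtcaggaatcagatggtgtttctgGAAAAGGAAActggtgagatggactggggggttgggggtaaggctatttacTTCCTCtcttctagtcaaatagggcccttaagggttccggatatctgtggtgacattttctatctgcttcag
Fcgr1, chr3:96293920-96294219, minus strand: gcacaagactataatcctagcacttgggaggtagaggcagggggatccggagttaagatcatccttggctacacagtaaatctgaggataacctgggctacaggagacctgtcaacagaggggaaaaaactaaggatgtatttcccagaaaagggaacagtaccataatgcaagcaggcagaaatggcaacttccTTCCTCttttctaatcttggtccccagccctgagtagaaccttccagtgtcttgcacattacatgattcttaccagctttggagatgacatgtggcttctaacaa
Fcgr3, chr1:171059354-171059653, minus strand: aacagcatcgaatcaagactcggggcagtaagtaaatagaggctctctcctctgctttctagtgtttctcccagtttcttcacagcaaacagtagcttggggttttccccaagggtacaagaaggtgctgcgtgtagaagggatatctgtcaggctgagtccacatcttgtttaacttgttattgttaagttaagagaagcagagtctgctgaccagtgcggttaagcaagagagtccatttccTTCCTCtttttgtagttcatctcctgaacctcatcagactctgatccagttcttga
The Fcgr4 window holds GAAANNGAAA at -73 and the PU.1 core at -22. The Fcgr1 window holds the PU.1 core at -55. The Fcgr3 window holds the PU.1 core at -6, and at -15 when counted from the other RefSeq start of the gene. These letters were not found in the windows of Fcgr2b and Fcer1g. Of all 32851 promoter windows, 28.3% held the PU.1 core and 3.44% GAAANNGAAA. A match of letters is a description of the window and shows no binding.

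The genes whose profile over the 7 libraries was closest to each member were searched among 10283 genes with a mean of at least 10 CPM, by the root mean square difference of log2(CPM + 1) centred on each gene's mean. For Fcgr4 these were Ifi205 (0.0816), Gyg (0.162) and Ifi213 (0.183). Ifi205 and Ifi213 belong to a family of interferon-activated genes, and Gyg encodes glycogenin, which primes glycogen synthesis. Ifi205 was at 10.8, 10.4 and 10.6 CPM in unlasered libraries 1, 2 and 3 and at 28.2, 31.8, 26.4 and 12.3 CPM in lasered libraries 1, 2, 3 and 4. Like Fcgr4, it was low in lasered library 4, a trait that the search by profile selects for. Of the 3 genes, Gyg passed the test, with a log2 fold change of 0.98 (SE 0.20, adjusted p = 0.0271 from limma), a call that held in 8 of 15 alternative settings.

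The other members varied less over the libraries, and their closest profiles differed by less. For Fcgr1 these were Gabarap, an autophagy protein (0.0612), Apool (0.0615) and Gm6644 (0.0634). For Fcgr3 they were Slbp, which binds histone mRNA (0.0514), Ociad1 (0.0520) and Lyrm4 (0.0547). For Fcgr2b they were Actr8 (0.0337), the small GTPase Rab2a (0.0339) and Uqcrc2, a subunit of respiratory complex III (0.0406), and for Fcer1g Zfp706 (0.0351), Banf1 (0.0364) and Ost4 (0.0380). All are distances over the same 7 libraries, and a flat gene finds close profiles more readily than a gene that varies.

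**Figure D4:**
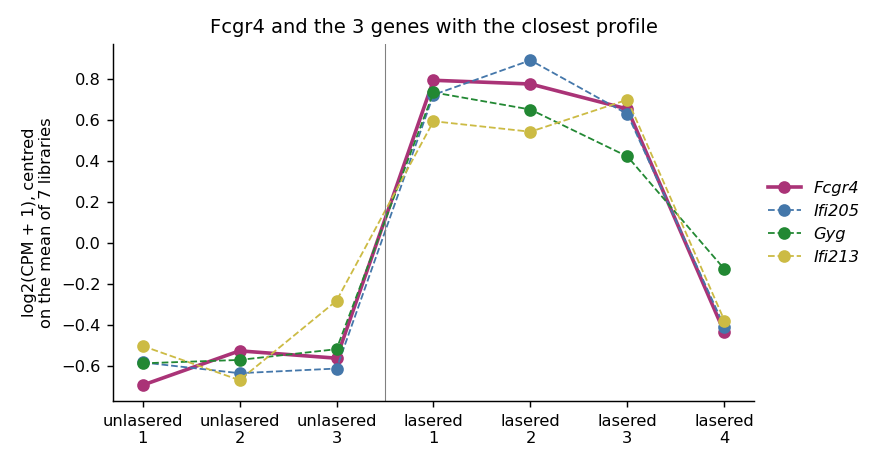
Log2(CPM + 1) of Fcgr4 (solid purple) and of the 3 genes with the closest profile (dashed), each centred on its mean over the 7 libraries, by library. Lines join the points of a gene for reading only, since libraries of a group have no order. All 4 genes are high in lasered libraries 1 to 3 and lower in lasered library 4, a shape that the choice by profile selects for.

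The genes around the receptors were read from 7 lists with 99 genes, of which 97 were in the table and 78 were tested. Of these 78, 3 were higher after laser injury (3.85%) and 0 were lower with limma, where 3.86% of all tested genes were higher and 3.07% lower. At an unadjusted p under 0.05, 12 list genes were higher and 1 lower, against 11.0% and 11.6% of all tested genes. With edgeR 4 were higher (with Gsn added) and 0 lower, against 3.78% and 3.45% of all tested genes. With DESeq2 6 were higher and 1 lower (Irf1), against 6.73% and 6.53%. Gsn and Irf1 are named here after their values were seen. The median log2 fold change of the 78 was 0.08, beside -0.01 over all genes tested. Without unlasered library 3, 11 of the 78 list genes passed with limma, Irf1 among them as lower, where 8.04% of all tested genes passed.

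Among the ligands and other receptors of immunoglobulins little was measured. Of 12 immunoglobulin and pentraxin genes in the table, only Ighm, the IgM heavy chain, was high enough to be tested, at 40.5 to 71.0 CPM in unlasered and 16.3 to 58.7 CPM in lasered libraries (log2 fold change -0.62, adjusted p = 0.384 from limma). Jchain, which joins IgM and IgA polymers, was not tested. The 4 IgG heavy chain genes in the list, looked at after their values were seen, did not exceed 0.588 CPM in any library. Of 13 other immunoglobulin Fc receptor genes 8 were tested, and 0 passed with limma, edgeR or DESeq2 (1 at an unadjusted p under 0.05). The most abundant were Fcrls, an Fc receptor-like gene typical of microglia, at 3778 to 4514 CPM in unlasered and 3394 to 4447 CPM in lasered libraries (log2 fold change -0.05, adjusted p = 0.861 from limma), and B2m, which pairs with the neonatal Fc receptor (log2 fold change 0.22, adjusted p = 0.473 from limma).

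Of the other receptors that pair with the common gamma chain, 4 of 7 in the table were tested, and 0 passed with limma, edgeR or DESeq2 (2 at an unadjusted p under 0.05). Clec4n, which encodes the fungal receptor Dectin-2, was at 502, 373 and 352 CPM in unlasered libraries and at 497, 618, 626 and 532 CPM in lasered libraries (log2 fold change 0.49, SE 0.15, adjusted p = 0.0968 from limma). Unlasered library 1 lay within the lasered range. Clec4e, which encodes Mincle, was at 4.47 to 25.9 CPM in unlasered and 3.69 to 17.6 CPM in lasered libraries (log2 fold change -0.64, adjusted p = 0.581 from limma).

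Downstream, 1 of 22 ITAM signalling genes was higher, Lat2, an adaptor of myeloid and mast cells. Lat2 was at 37.7, 30.3 and 28.3 CPM in unlasered and 49.7, 60.2, 58.7 and 65.1 CPM in lasered libraries, without overlap (log2 fold change 0.85, SE 0.16, adjusted p = 0.0178 from limma). It did not pass without lasered library 2 or 3, with the replicate block or with no filter on low values. The kinase Lyn (log2 fold change 0.15, adjusted p = 0.503 from limma) and Tyrobp, the other ITAM adaptor of microglia (log2 fold change 0.21, adjusted p = 0.366 from limma), were the most abundant of this list and did not pass. The median of the list was 0.17.

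Of 12 ITIM and inhibitory signalling genes 1 was higher, Cd300lf, an inhibitory receptor of myeloid cells. It was at 14.2, 15.4 and 17.1 CPM in unlasered and 30.6, 38.0, 35.3 and 33.5 CPM in lasered libraries, without overlap (log2 fold change 1.09, SE 0.15, adjusted p = 0.00749 from limma). Inpp5d, which encodes the phosphatase SHIP-1 recruited by Fcgr2b, was at 541, 518 and 967 CPM in unlasered and 907, 767, 733 and 757 CPM in lasered libraries (log2 fold change 0.28, adjusted p = 0.472 from limma). Unlasered library 3 was the highest of all, and without it Inpp5d passed with a log2 fold change of 0.57 (adjusted p = 0.0297 from limma). Ptpn6, which encodes the phosphatase SHP-1, had a log2 fold change of 0.08 (adjusted p = 0.782 from limma), and the median of the list was 0.11.

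Of 18 effectors of the phagocytic cup 1 was higher, Rac2, the Rac GTPase of blood cells. Rac2 was at 239, 228 and 267 CPM in unlasered and 489, 474, 499 and 448 CPM in lasered libraries, without overlap (log2 fold change 0.97, SE 0.11, adjusted p = 0.00461 from limma). Cdc42 (log2 fold change 0.13, adjusted p = 0.538 from limma) and Marcks (log2 fold change -0.19, adjusted p = 0.364 from limma) were the most abundant and did not pass, and the median was 0.07. Of 13 regulators of Fc receptor genes 0 passed with limma or edgeR, 1 was lower with DESeq2, and 2 were higher and 1 lower at an unadjusted p under 0.05. The interferon gamma receptor chain Ifngr1 (log2 fold change -0.09, adjusted p = 0.752 from limma) and the TGF-beta receptor chain Tgfbr1 (log2 fold change -0.22, adjusted p = 0.633 from limma) were the most abundant, and the median was 0.04.

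**Figure D5:**
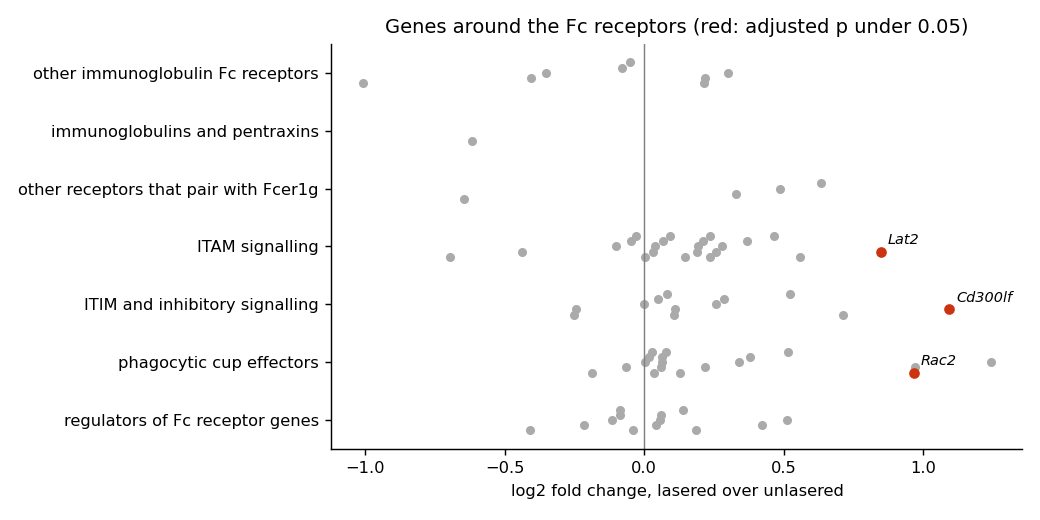
Log2 fold change of lasered over unlasered libraries for each tested gene of the 7 lists around the Fc receptors (x axis, grey points spread vertically for reading), with genes past an adjusted p of 0.05 from limma in red. Lat2, Cd300lf and Rac2 are the 3 that passed, all higher after laser injury.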

How the data were processed

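RNA of sorted retinal microglia was sequenced after SMARTer Ultra Low Input v4 amplification and Nextera XT tagmentation, which do not mark strand. The authors checked reads with FastQC, removed adapters (cutadapt) and duplicates (FastUniq), mapped them with Bowtie2, counted them with HTSeq on the genes of Ensembl annotation version 90, and normalised them with DESeq2. Per the labels the genome build was GRCm38. The deposited values are headed TPM but are CPM: in each library 100% of the values were whole multiples of a common step (within 0.05 reads) whatever the gene length, and each library sums to 1000000. Of the genes listed, 4492 had reads listed jointly with an overlapping gene.

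The 5 members, the gene lists and the marker lists were chosen with earlier results of these data known. Members were matched by symbol; 99.6% of the identifiers matched GENCODE M21, which gave positions, exonic lengths and coding sequence. Levels between genes are CPM per kb of exon.

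The groups were compared in limma 3.58.1 (R 4.3.3, statmod 1.5.0; trend and robust), two-sided, on log2(CPM + 1), over the 17496 genes that reached 1 CPM in 3 or more libraries, with Benjamini-Hochberg adjustment. Fold changes are on the log2(CPM + 1) scale, which understates those of low genes. This fit called 1213 genes, and on the recovered reads edgeR 4.0.16 called 1266 and DESeq2 1.42.0 called 2318. Depth set a floor of 3 reads, 0.0653 to 0.147 CPM, which covers counting error only. Replicate libraries differed beyond counting noise; each pools several mice, and nothing says that the pools came from separate experiments, so p-values measure the spread between these libraries.

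Besides the members, the text names list genes past the threshold, the 2 most abundant of each list, and the 3 genes with the profile closest to each member. Alternatives were another pseudocount, filter, scaling, tool, depth and length, a replicate block, and each library left out. Tables and figures were made in Python 3.11.15 (biopython 1.88, matplotlib 3.10.9, numpy 2.4.6, pandas 2.3.3). Protein sequences were not used here, and some items of the lists and motifs are not reported here.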

Additional observations from a re-analysis of the deposited data

Results flagged for a closer look

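Of 24 levels and ratios examined over the 4 lasered libraries, 2 had a single library far from the other 3 by Dixon's ratio, where chance gives about 1 in 20. Fcgr4 was at 94.8 CPM in lasered library 4 and at 203 to 224 CPM in the other lasered libraries (Dixon's ratio 0.839). Jchain was at 0.697 CPM in lasered library 3 and at 0 to 0.0227 CPM in the others (Dixon's ratio 0.967). Outside lasered library 3 these values lie under the floor of 3 reads, so the ratio cannot tell an outlying library from sporadic reads. Jchain was at 0, 6.86 and 0.0555 CPM in unlasered libraries 1, 2 and 3.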

How the results depend on the processing

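Fcgr1 and Fcgr2b kept their direction and their side of the threshold in all 15 alternative fits. Fcgr4 kept its direction in all and passed with edgeR (log2 fold change 1.12), DESeq2 (1.12), median-of-ratios scaling (1.05) and without lasered library 4 (1.33). Fcgr3 passed without unlasered library 3 (-0.56), and Fcer1g turned to 0.046 without unlasered library 1. Leaving out each library in turn gave log2 fold changes of 0.28 to 0.49 for Fcgr1, -0.27 to -0.13 for Fcgr2b, -0.56 to -0.29 for Fcgr3, 0.92 to 1.33 for Fcgr4 and -0.17 to 0.046 for Fcer1g. Among all genes 1213 passed; the count was 2318 with DESeq2, 626 with a mean of at least 10 CPM, 385 with no filter on low values and 262 to 1406 with a library left out. Among list genes 3 passed, 7 with DESeq2 and 2 to 11 with a library left out. With the longest transcript as length, the unlasered and lasered levels were 139 and 121 CPM per kb for Fcgr2b, 1144 and 860 for Fcgr3, and 2499 and 2404 for Fcer1g, the ratio of activating receptors to Fcgr2b was 9.15 and 9.04, and that of Fcer1g to activating receptors was 2.20 in lasered libraries. The cause of these shifts was not tested, apart from the lengths, which set the last group by construction.

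Libraries 1, 2 and 3 of both groups share numbers. After subtraction of the group means, libraries with the same number correlated at -0.183, -0.126 and -0.0234 across genes. No unlasered library correlated best with the lasered library of its own number. These values gave no sign of a pairing by number, but they cannot show how the libraries were collected. In a fit with the replicate block, to which lasered library 4 adds nothing, 3 genes passed among all and 0 among the lists, and the log2 fold changes were 1.33 for Fcgr4 (adjusted p = 0.0708 from limma), 0.45 for Fcgr1, -0.41 for Fcgr3, -0.14 for Fcgr2b and -0.03 for Fcer1g. None of the 5 members passed in it. The members had at least 1617 reads in every library.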

Other observations

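Markers of other cells, some of which carry Fc receptors, were present in the sorted cells at levels that differed between the marker lists. The 7 neutrophil markers summed to 302 to 467 CPM in unlasered and 372 to 437 CPM in lasered libraries. Ly6g and Retnlg were at or under the floor of 3 reads in every library, and most of each sum was Csf3r. With limma 2 of 4 tested markers, Cxcr2 and Mmp8, were higher after laser injury, where 3.86% of all tested genes were higher. S100a8 and Csf3r did not pass (log2 fold change -0.07 and 0.16). The 6 natural killer cell markers summed to 2.84 to 3.62 CPM in unlasered libraries and to 15.7, 31.2, 4.70 and 2.40 CPM in lasered libraries 1, 2, 3 and 4, with 0 of 2 tested markers past the threshold of limma, edgeR or DESeq2 (1 at an unadjusted p under 0.05). The 6 dendritic cell markers summed to 18.3 to 40.8 CPM in unlasered libraries and to 126, 132, 34.1 and 31.0 CPM in lasered libraries 1, 2, 3 and 4. Ccr7 was the largest part in lasered libraries 1 and 2. Of 5 tested 0 passed with limma, 1 with edgeR and 2 with DESeq2 (2 at an unadjusted p under 0.05). The 5 B cell markers summed to 9.43 to 26.9 and 20.4 to 23.6 CPM.

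The 6 mast cell and basophil markers summed to 2.42 to 7.48 CPM in unlasered and 2.18 to 3.83 CPM in lasered libraries, and Mcpt4, Tpsb2 and Fcer1a, the chain of the IgE receptor that needs Fcer1g, were at or under the floor of 3 reads in every library. The 6 endothelial markers summed to 14.9 to 57.8 CPM in unlasered and 13.0 to 28.0 CPM in lasered libraries, with Cldn5 at or under the floor. The 5 markers of Mueller glia summed to 421 to 778 CPM and 166 to 477 CPM. Of 4 tested, 1 was higher after laser injury with limma, Gfap, and 0 passed with edgeR or DESeq2. Gfap was at 0 to 1.53 CPM in unlasered and 2.18 to 3.87 CPM in lasered libraries. The other tested markers, Slc1a3, Rlbp1 and Glul, went the other way, with log2 fold changes of -2.14, -0.42 and -0.10. None of them passed, and 1 marker was lower at an unadjusted p under 0.05. Marker genes were named after their values were seen. How far any of these cells contributed to the Fc receptor levels was not tested.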
